A study of Macaca mulatta with 6 samples.

Results

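The genes of prostaglandin synthesis, reception and breakdown were examined in bulk RNA sequencing of cultured rhesus monkey (Macaca mulatta) testicular cells. The genes were chosen by name: the cyclooxygenases PTGS1 and PTGS2, the terminal synthases PTGES, PTGIS and PTGDS, the receptors PTGER2, PTGER4 and PTGFR, and the degrading enzyme HPGD. Of these 9 genes, 7 were among the 17795 genes analysed, and PTGES and PTGDS were not analysed here. The PDGF group held 3 libraries from cultures supplied with human platelet-derived growth factor (PDGF), and the PDGFNO group held 3 libraries from PDGF-free controls. The culture methods describe 3D droplets of basement membrane extract under serum-containing spermatogonial stem cell (SSC) medium. The supplements of this medium included GDNF, EGF, LIF, bFGF and Wnt3a. The methods do not state separately how the PDGF-free cultures were grown. The labels name no genetic change. The ages and number of donors and the days in culture were not given for these libraries. Replicate 1 of each group is labelled batch 1, and replicates 2 and 3 are labelled batch 2. Nothing states that the replicates came from separate cultures, so p-values measure the spread between these libraries, which may be technical.

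Prostaglandins are short-range lipid signals. A phospholipase frees arachidonic acid from membranes, a cyclooxygenase turns it into the common precursor prostaglandin H2, and a terminal synthase or reductase makes the final product, such as prostaglandin E2 or prostacyclin. PTGS1 is usually the constitutive cyclooxygenase and PTGS2 the inducible one, and the products act on G protein-coupled receptors before HPGD oxidizes them to weakly active forms. In the testis, prostaglandins are made and sensed by somatic cells such as Leydig, Sertoli and peritubular cells.

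Total counts ranged from 10593805 to 14102697 per library. The labels give the tissue as testis and the study describes the cells as SSCs. Of the defining germ cell markers, DDX4 had 9, 2 and 2 counts in PDGF and 18, 38 and 13 in PDGFNO, and DAZL had 7, 2 and 0 against 14, 10 and 13. Stromal markers dominated: the summed level of 6 fibroblast genes lay between 13800 and 19000 CPM (counts scaled to library size, after TMM normalization) in PDGF and between 16700 and 18800 CPM in PDGFNO, led by COL1A2 and COL1A1. Other germ cell markers ranged widely. ID4 was at 127 to 177 CPM over the 6 libraries. FGFR3 was at 7.16 to 17.8 CPM in PDGF and 25.9 to 81.8 CPM in PDGFNO. The spermatid genes TNP1 and TNP2 were at 22.3 to 38.4 CPM in PDGF and 205 to 346 CPM in PDGFNO. The remaining germ cell markers analysed were at most 8.13 CPM (TMEM190) in any library. Summed over the PDGF and the PDGFNO libraries, GFRA1 had 5 and 18 counts, ZBTB16 1 and 9, and SALL4 1 and 20. Likewise MAGEA4 had 0 and 1, SPACA1 7 and 32, and ACRV1 19 and 34. The libraries are called cultures here. Among the 6 fibroblast genes PDGFRA and COL3A1 were lower, but PDGFRA and FIP1L1 had identical counts throughout and cannot be told apart. Because the samples are bulk, fewer cells of a type and less RNA per cell cannot be told apart in any of the results.

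Both cyclooxygenases were higher with PDGF, PTGS2 by 7.89-fold and PTGS1 by 2.96-fold, and the 2 prostaglandin E2 receptors among these genes moved in opposite directions, PTGER2 higher by 1.92-fold and PTGER4 lower by 3.19-fold. Of the 7 genes, 6 passed the count filter. In the edgeR quasi-likelihood test with Benjamini-Hochberg adjustment over all 11539 genes tested, 3 were higher and 1 was lower at an adjusted p under 0.05, where 7.61% of all genes tested were called higher, 10.7% lower and 18.3% either way. The same 3 and 1 did not overlap between groups in any library, against 18.2% of all genes tested that lay wholly above and 19.3% that lay wholly below. The genes were chosen with earlier results of these data known, so setting their calls beside these shares is no test of the pathway. The sequences before the start sites of these 4 genes are shown first because these are the members whose transcripts changed. Each run is the 300 bases before the outermost start annotated by RefSeq on Mmul_10, 5′ to 3′ on the gene's strand. The windows are chr15:20331954-20332253 (minus strand), chr1:43921018-43921317 (minus strand), chr7:114426646-114426945 (plus strand) and chr6:40540597-40540896 (plus strand). Gene positions given with each member are RefSeq's on the same build. Capitals mark matches on either strand to a short CRE site (TGACG, which the full CRE TGACGTCA contains), an AP-1 site (TGANTCA), the NF-kappaB consensus, a CArG box, a GC box (GGGCGG) or a TATA box (TATAAA).
PTGS1: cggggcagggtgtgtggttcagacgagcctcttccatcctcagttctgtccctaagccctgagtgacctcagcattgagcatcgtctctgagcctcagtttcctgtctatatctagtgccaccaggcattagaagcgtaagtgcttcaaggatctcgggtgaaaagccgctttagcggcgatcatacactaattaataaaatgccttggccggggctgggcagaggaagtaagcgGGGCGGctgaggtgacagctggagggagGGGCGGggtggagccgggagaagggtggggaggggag
PTGS2: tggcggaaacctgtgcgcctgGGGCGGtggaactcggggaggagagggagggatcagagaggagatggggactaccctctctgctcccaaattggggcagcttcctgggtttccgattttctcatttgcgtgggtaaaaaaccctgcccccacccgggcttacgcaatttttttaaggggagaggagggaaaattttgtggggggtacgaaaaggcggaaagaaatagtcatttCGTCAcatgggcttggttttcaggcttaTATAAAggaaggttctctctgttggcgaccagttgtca
PTGER2: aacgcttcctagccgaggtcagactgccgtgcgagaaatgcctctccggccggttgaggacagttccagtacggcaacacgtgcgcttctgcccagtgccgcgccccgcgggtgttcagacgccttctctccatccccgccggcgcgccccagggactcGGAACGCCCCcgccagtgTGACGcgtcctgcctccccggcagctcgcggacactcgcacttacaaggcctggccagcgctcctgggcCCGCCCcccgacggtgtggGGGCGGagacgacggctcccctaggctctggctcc
PTGER4: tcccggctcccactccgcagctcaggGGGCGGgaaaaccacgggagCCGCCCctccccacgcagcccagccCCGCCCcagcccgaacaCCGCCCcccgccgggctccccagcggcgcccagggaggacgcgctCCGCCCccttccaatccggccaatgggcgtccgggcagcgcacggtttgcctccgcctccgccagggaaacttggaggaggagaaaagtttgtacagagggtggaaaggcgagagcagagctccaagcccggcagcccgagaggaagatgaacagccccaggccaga

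The PTGS2 window held a TATA box 38 to 33 bases before the start, a short CRE site on the opposite strand 66 to 62 bases before it and 1 GC box. The PTGS1 window held no TATA box and no short CRE site, but 2 GC boxes. Over the 20972 promoters of the same length, 12.1% held a TATA box, 21.8% a short CRE site and 45.2% a GC box. The PTGER4 window held 5 GC boxes and none of the other motifs. The PTGER2 window held 2 GC boxes, 1 short CRE site and 1 match to the NF-kappaB consensus, which 11.2% of promoters held. None of the 4 windows held a full CRE (1.54% of promoters), an AP-1 site (6.24%) or a CArG box (1.25%). These are exact matches of letters, and sites that differ from a pattern are not marked. The matches were not tested as binding sites.

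PTGS1 (chr15:20307153-20331953, minus strand), the enzyme that makes prostaglandin H2 in most resting tissues, was the most abundant of the 7 genes per length, at 358 ± 21.5 TPM (counts scaled to transcript length and library size, SD, n = 3) with PDGF and 107 ± 6.43 TPM (SD, n = 3) without. It was measured at 853, 944 and 1020 CPM in PDGF replicates 1, 2 and 3 and at 309, 321 and 323 CPM in the PDGFNO replicates. The lowest PDGF library was above 2 times every PDGFNO library. The log2 fold change was 1.57 (standard error 0.122, 95% interval 1.29 to 1.85, edgeR adjusted p = 0.000195). Within batch 1 the log2 difference was 1.47, and within batch 2 it was 1.61. PTGS1 is also expressed by myeloid and mast cells, and their defining markers PTPRC and CPA3 had 0 counts in all 6 libraries, which allows up to 0.203 to 0.294 CPM, depending on the library, for a floor of 3 counts. The summed level of the 6 myeloid markers was 17.5 to 19.8 CPM in PDGF and 11.8 to 18.9 CPM in PDGFNO, mostly CD68. Other myeloid markers were detected in every library, CD14 with 9 to 25 counts, CSF1R 3 to 16, CD163 3 to 17 and LYZ 2 to 9. Which cells the PTGS1 transcripts came from was not tested.

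PTGS2 (chr1:43912072-43921017, minus strand), the inducible cyclooxygenase and a target of growth factor and cytokine signaling, was at 61.2, 42.7 and 41.1 CPM in the PDGF replicates and at 8.29, 5.27 and 4.70 CPM in the PDGFNO replicates. The groups were far apart, and in both of them the batch 1 library was the highest. The log2 fold change was 2.98 (standard error 0.276, 95% interval 2.34 to 3.61, edgeR adjusted p = 0.000409), with 2.88 in batch 1 and 3.06 in batch 2. Per length, PTGS2 remained the minor cyclooxygenase. Its share of the PTGS1 and PTGS2 sum was 7.49%, 4.86% and 4.34% in the PDGF libraries and 2.94%, 1.82% and 1.62% in the PDGFNO libraries. The means were 5.56 ± 1.69% (SD, n = 3) and 2.13 ± 0.714% (SD, n = 3), and the lowest PDGF share was above the highest PDGFNO share. The sum was thus mostly PTGS1 in every library.

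**Figure D1:**
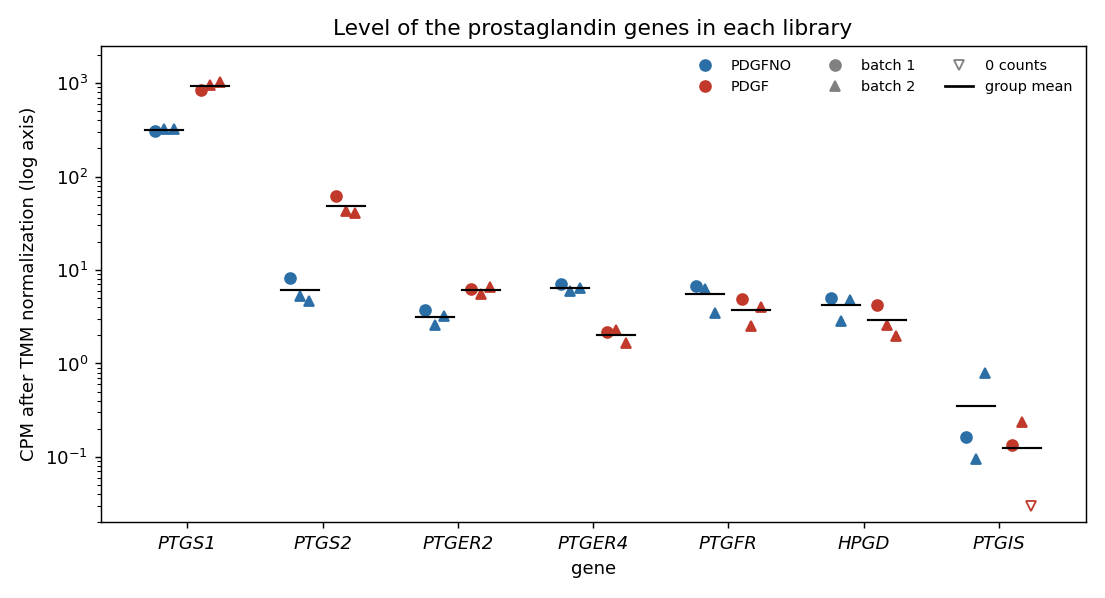
The level of each of the 7 genes in each library, in CPM after TMM normalization on a log axis, with PDGFNO in blue, PDGF in red, circles for batch 1, triangles for batch 2, black lines for group means and an open symbol at the bottom for the library with 0 counts. PTGS1, PTGS2 and PTGER2 lay higher in all PDGF libraries and PTGER4 lower, while PTGFR, HPGD and PTGIS overlapped between the groups.

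The PTGS2 messenger RNA is known for AU-rich elements after its stop codon, through which its decay is controlled. Its RefSeq transcript has 17 copies of the pentamer ATTTA in the 2566 bases after the stop codon, and 2.08% of 15869 genes had as many or more. That is 6.63 per kilobase, against a median of 1.37 over all genes, and 5.10% of genes had as high a density. PTGS1 had 3 copies in 3148 bases, or 0.953 per kilobase. Among the other members, PTGER2 had 4.36 per kilobase, HPGD 3.02, PTGFR 1.45 and PTGIS 0, and PTGER4 has no value. The stretch from base 1 to base 30 after the stop codon of PTGS2 holds 3 overlapping copies and is shown as an example of such a run. Capitals mark the pentamers.
PTGS2: aagtctaatgatcatATTTATTTATTTAta

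Of 8 genes for proteins that bind AU-rich or PTGS2 transcripts, 7 were analysed and 6 were tested. Of these 6, 1 was higher and 1 was lower, against 7.61% and 10.7% of all genes tested. The median log2 fold change was -0.14, against 0.02 over all genes tested. Blocked on the replicate number, edgeR called 2 higher and 3 lower, where it called 31.1% of all genes higher and 29% lower. ZFP36 (tristetraprolin), which promotes the decay of such transcripts, was at 27.8, 37.5 and 35 CPM with PDGF and 18.4, 20.9 and 20.2 CPM without, 0.75 higher on the log2 scale (edgeR adjusted p = 0.0198). Its call was lost in 4 of the 6 fits that left out 1 library, each without replicate 2 or 3 of a group (adjusted p up to 0.088), and with replicates 2 and 3 summed (0.208). Its relative ZFP36L1, with a similar role, fell from 753, 728 and 727 CPM to 347, 372 and 361 CPM, with -1.03 on the log2 scale as the difference (standard error 0.11, edgeR adjusted p = 0.000766). The family members thus went opposite ways.

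Among the terminal synthases, PTGIS (chr10:84722873-84788273, minus strand), which makes prostacyclin, had 2, 3 and 0 counts in PDGF and 2, 1 and 8 in PDGFNO. It did not pass the count filter. The ratio of the group totals scaled to library size, PDGF over PDGFNO, was 0.365 with an exact (Clopper-Pearson) 95% interval from 0.0994 to 1.14, for counting error alone. Over all 6 libraries the interval thus included 1. Of its 11 PDGFNO counts, 8 came from replicate 3, without which the ratio was 0.922. The interval excluded 1 without PDGF replicate 2 (ratio 0.212, 0.0229 to 0.973), PDGFNO replicate 1 (0.280, 0.0738 to 0.932) or PDGFNO replicate 2 (0.274, 0.0734 to 0.879). The list of other synthases and reductases held 9 genes, of which 8 were analysed and 6 were tested. In edgeR without a block 0 of the 6 passed the threshold, against 18.3% of all genes tested. Of the 6, 0 had an unadjusted p under 0.05, and limma-voom and DESeq2 also called 0. Blocking on the replicate number gave 3 higher and 1 lower, where 31.1% of all genes tested were called higher and 29% lower. PTGES3 and PTGES2 are named as further prostaglandin E synthases, and no enzyme activity was measured here. Their transcripts stood at 217 ± 59.6 TPM (SD, n = 3) and 83.9 ± 22.6 TPM (SD, n = 3) with PDGF. Without PDGF they stood at 136 ± 53.5 TPM (SD, n = 3) and 79.5 ± 13.6 TPM (SD, n = 3). In both groups replicate 1 was the highest library for PTGES3, whose log2 fold change was 0.50 (edgeR adjusted p = 0.178, or 4.62e-08 with the block). AKR1B1, a reductase that can form prostaglandin F2-alpha, was the most abundant gene of that list per length, at 679 ± 21.3 TPM (SD, n = 3) and 729 ± 21.2 TPM (SD, n = 3), with every PDGF library below every PDGFNO library and -0.28 as the log2 fold change (edgeR adjusted p = 0.153, or 4.32e-06 with the block). CBR1 and CBR3, which are 2 of the 3 higher with the block, had identical counts in every library, so they are 1 measurement and their reads cannot be assigned to either gene. HPGDS, the hematopoietic prostaglandin D synthase, had 0 counts in all 6 libraries.

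The receptors were low. PTGER2 (chr7:114426946-114441300, plus strand), a receptor that raises cyclic AMP when prostaglandin E2 binds, was at 6.28, 5.55 and 6.54 CPM in the PDGF replicates and at 3.70, 2.59 and 3.23 CPM in the PDGFNO replicates, from 71 to 93 counts against 27 to 45. All PDGF libraries lay above all PDGFNO libraries. The log2 fold change was 0.94 (standard error 0.247, 95% interval 0.377 to 1.51, edgeR adjusted p = 0.033), with 0.757 in batch 1 and 1.04 in batch 2. This call was the least secure of the 4. It was lost without PDGF replicate 1 (adjusted p = 0.0694), 2 (0.0789) or 3 (0.112) and without PDGFNO replicate 2 (0.105) or 3 (0.0906), while the log2 fold change stayed between 0.82 and 1.06. It was also lost with replicates 2 and 3 of each group summed (edgeR adjusted p = 0.193), and with batch in that model it was 0.00161.

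PTGER4 (chr6:40540897-40554679, plus strand), the other receptor that couples prostaglandin E2 to cyclic AMP, was at 2.16, 2.27 and 1.65 CPM with PDGF and at 7.06, 6.03 and 6.37 CPM without. The PDGFNO libraries were all above 2 times every PDGF library. The log2 fold change was -1.67 (standard error 0.256, 95% interval -2.26 to -1.09, edgeR adjusted p = 0.00374), with -1.69 in batch 1 and -1.66 in batch 2. PTGFR (chr1:145874716-145921422, minus strand), the receptor for prostaglandin F2-alpha, was at 4.86, 2.5 and 3.98 CPM with PDGF and at 6.82, 6.32 and 3.43 CPM without. The groups overlapped. Its log2 fold change was -0.54 with a 95% interval of -1.36 to 0.273 (edgeR adjusted p = 0.324, 0.114 when blocked on replicate number). Per length, PTGER2 made up 54.8 ± 4.08% (SD, n = 3) of the summed transcripts of these 3 receptors with PDGF and 24.2 ± 4.55% (SD, n = 3) without. PTGER4 made up 13.5 ± 3.49% (SD, n = 3) and 36.4 ± 4.62% (SD, n = 3). The order with PDGF was PTGER2 at 4.81 ± 0.596 TPM (SD, n = 3), PTGFR at 2.88 ± 1.06 TPM (SD, n = 3) and PTGER4 at 1.17 ± 0.21 TPM (SD, n = 3). Without PDGF the order was PTGFR at 3.73 ± 1.44 TPM (SD, n = 3), PTGER4 at 3.33 ± 0.55 TPM (SD, n = 3) and PTGER2 at 2.22 ± 0.555 TPM (SD, n = 3), where PTGFR and PTGER4 differed by less than their spread.

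**Figure D2:**
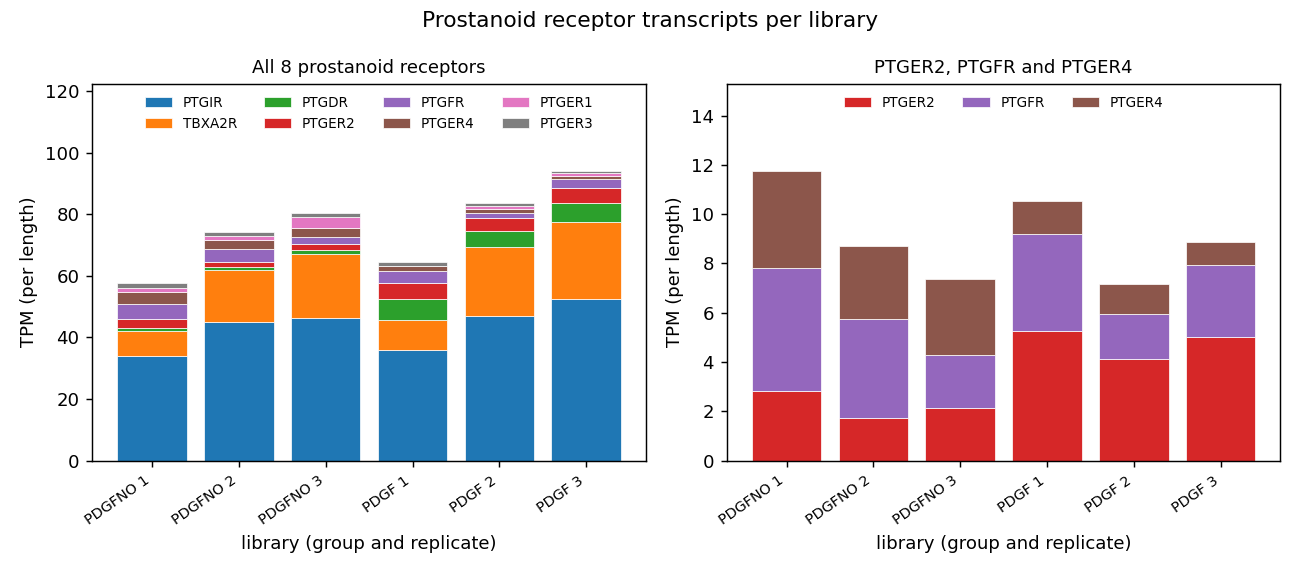
Prostanoid receptor transcripts in each library, in TPM, as stacked bars for all 8 prostanoid receptors analysed, PTGFRN not included (left) and for PTGER2, PTGFR and PTGER4 alone (right). PTGIR is the tallest section of each bar on the left, and on the right PTGER2 takes 50.1% to 57.7% of the PDGF bars and 19.8% to 28.9% of the PDGFNO bars.

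Of 7 further receptor genes listed, 6 were analysed and all 6 were tested. They comprise 5 prostanoid receptors and PTGFRN, which encodes a protein that binds and inhibits the PTGFR receptor. Of the 6, PTGDR alone passed the threshold, against 18.3% of all genes tested, and the median log2 fold change was 0.03. With the block, PTGDR and PTGFRN were higher and PTGER1 was lower, against 31.1% and 29% of all genes tested. PTGDR, a receptor for prostaglandin D2, was at 21.3, 18.5 and 21.7 CPM with PDGF and at 4.11, 4.02 and 4.70 CPM without, which set the groups widely apart. Its log2 fold change was 2.26 (standard error 0.189, edgeR adjusted p = 0.000264), with 2.37 in batch 1 and 2.19 in batch 2. The gene lies on chromosome 7 of Mmul_10, and its annotated end is 22655 bases before the start of PTGER2 on the same strand. PTGIR, the prostacyclin receptor, was the most abundant receptor per length, at 45.2 ± 8.54 TPM (SD, n = 3) with PDGF and 41.8 ± 6.84 TPM (SD, n = 3) without. Its log2 fold change was -0.07 with a 95% interval of -0.626 to 0.487 (edgeR adjusted p = 0.868).

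HPGD (chr5:171785257-171817063, minus strand), the dehydrogenase that starts the breakdown of prostaglandins, was at 4.19, 2.58 and 1.95 CPM with PDGF and at 5.01, 2.87 and 4.80 CPM without. The groups overlapped. The log2 fold change was -0.54 with a 95% interval of -1.39 to 0.318 (edgeR adjusted p = 0.352, 0.142 when blocked on replicate number). Of the 8 transport and further breakdown genes listed, 6 were analysed and 5 were tested, with a median log2 fold change of 0.02. Of these 5, 1 passed the threshold, against 18.3% of all genes tested. This lower gene was SLCO3A1, a transporter that can carry prostaglandins, at 1.55, 1.02 and 1.2 CPM with PDGF and 3.45, 4.02 and 3.14 CPM without (log2 fold change -1.48, edgeR adjusted p = 0.0153). It lost its call without PDGF replicate 2 or 3 or PDGFNO replicate 2, at adjusted p up to 0.0717, and with replicates 2 and 3 summed (0.118). SLCO2A1, the main prostaglandin uptake transporter, differed by 0.02 on the log2 scale.

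Upstream of the cyclooxygenases, 10 genes of arachidonate release were listed, 5 were analysed and 4 were tested. Of these, 1 was higher and 1 was lower, or 1 and 3 with the block, and the median log2 fold change was -0.64. The 3 include PLA2G6, whose counts were the same as those of TMEM184B in every library. All genes tested had 7.61% higher and 10.7% lower, or 31.1% and 29% with the block, and a median of 0.02. PLA2G4A, the cytosolic phospholipase that supplies arachidonic acid to cyclooxygenases, was at 32.9, 21.7 and 23.4 CPM with PDGF and at 17.3, 12.7 and 11.5 CPM without. Its log2 fold change was 0.91 (standard error 0.237, edgeR adjusted p = 0.0328), with 0.925 in batch 1 and 0.896 in batch 2. The call was lost in 5 of the 6 fits that left out 1 library (all except that without PDGFNO replicate 1, at adjusted p up to 0.12), with upper quartile factors (0.0534) and with replicates 2 and 3 summed (0.174). MGLL, a lipase that frees arachidonic acid from monoacylglycerol, was lower, at 0.338, 0.704 and 0.301 CPM with PDGF and 2.71, 3.54 and 2.16 CPM without (log2 fold change -2.63, standard error 0.455, edgeR adjusted p = 0.00617). It rests on 5, 9 and 4 counts with PDGF, close to the 3-count floor, and on 33, 37 and 22 without. Over the 4 lists of other prostanoid genes, 2 of 21 tested genes were higher and 2 were lower, or 7 and 6 with the block where CBR1 and CBR3 are counted separately, which in both directions is near the share among all genes.

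**Figure D3:**
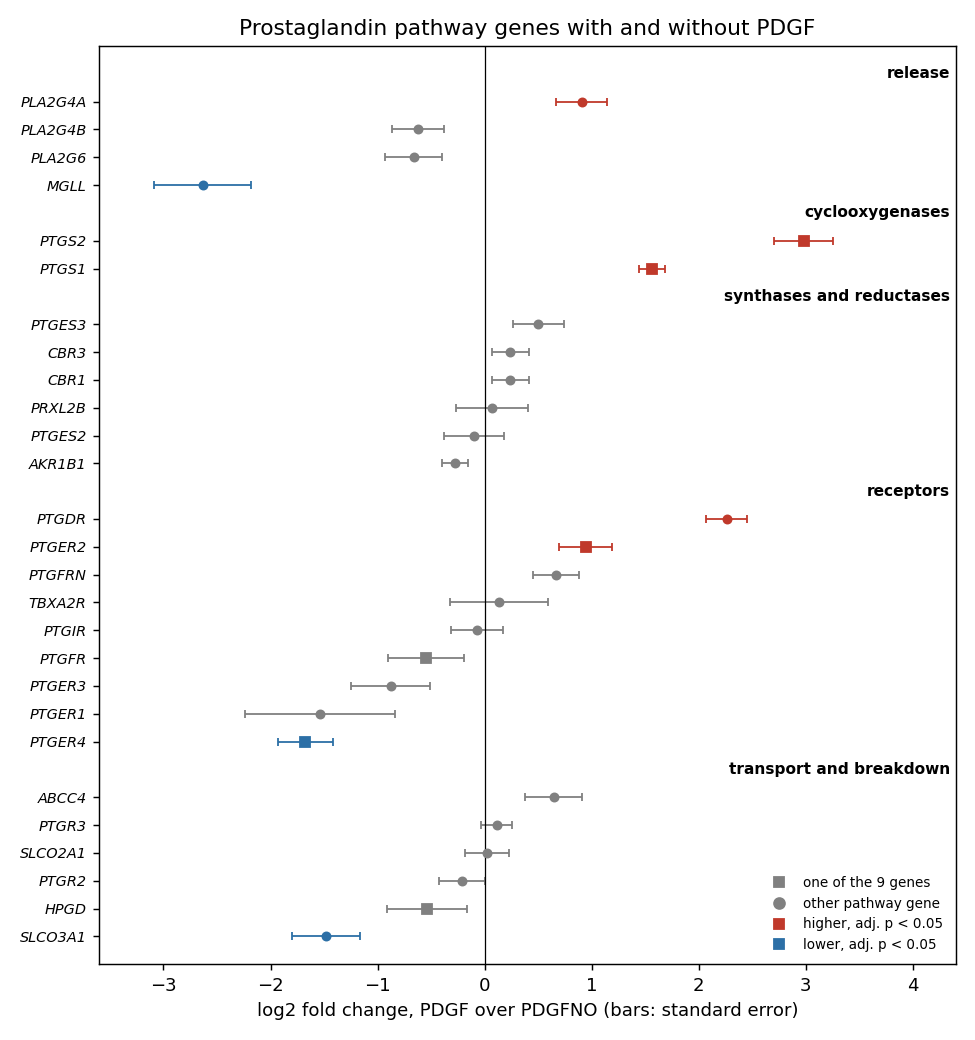
Log2 fold changes, PDGF over PDGFNO, of the tested prostaglandin genes (squares) and of the tested genes of the 4 lists of other prostanoid genes (circles), ordered by pathway step, with bars for the standard error, red for higher and blue for lower at an adjusted p under 0.05. PTGS2, PTGDR and PTGS1 lie farthest to the right, and MGLL and PTGER4 farthest to the left.

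The lipoxygenase branch uses the same arachidonic acid to make leukotrienes. Of its 12 listed genes, 10 were analysed and 5 were tested, of which 1 passed the threshold, against 18.3% of all genes tested. This higher gene was CYSLTR1, a receptor for cysteinyl leukotrienes, at 14.6, 9.31 and 8.71 CPM with PDGF and 1.48, 0.862 and 2.16 CPM without (log2 fold change 2.86, standard error 0.372, edgeR adjusted p = 0.00189). The enzyme ALOX5, which starts leukotriene synthesis, was counted 0, 0 and 1 times in the PDGF libraries and 4, 3 and 1 times in PDGFNO.

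PTGER2 and PTGER4 raise cyclic AMP, and 10 genes that respond to cyclic AMP were listed, of which 9 were analysed and tested. In edgeR 2 were higher and 2 were lower, or 4 and 2 with the block, and the median log2 fold change was 0.28. Among all genes tested 7.61% were higher and 10.7% lower, or 31.1% and 29% with the block, and the median was 0.02. The orphan nuclear receptors NR4A2 (log2 fold change 2.20, standard error 0.226, edgeR adjusted p = 0.000627) and NR4A3 (1.80, 0.242 and 0.00214) were higher. The phosphodiesterase PDE4D (-1.57, 0.302 and 0.00998) and the kinase SIK1 (-0.88, 0.166 and 0.00929) were lower. With replicates 2 and 3 summed, PDE4D (adjusted p = 0.086) and SIK1 (0.138) lost their calls. These genes respond to other signals as well. Of the listed genes called with the block alone, PLA2G6, RBM3 and PER1 had the same counts as TMEM184B, WDR13 and VAMP2 in every library, so their reads cannot be assigned.

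Across the 6 libraries, the genes with an average log2 CPM of at least 1 whose log2 CPM followed PTGS2 most closely were APLP2, ADAMTS12 and CCN4, with Pearson's r of 0.9995, 0.9993 and 0.9993. For PTGS1 they were COL6A3, PLP2 and SLC18A1 (0.9993, 0.9992 and 0.9988), and for PTGER4 they were RPL22, SLC16A7 and RPS7 (0.9983, 0.9973 and 0.9971). The 6 points share the groups and the batches, and 565, 441 and 364 of 10584 genes reached an r of at least 0.95 with PTGS2, PTGS1 and PTGER4. No p is given for these values.

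Other markers moved between the same groups. The summed level of 5 peritubular myoid markers, led by TAGLN and ACTA2, was 369 to 478 CPM in PDGF and 696 to 908 CPM in PDGFNO. Of the 5, 2 were called lower, against 10.7% of all genes tested. The 5 spermatid markers summed to 48.9 to 77.0 CPM and 417 to 689 CPM, mostly TNP1 and TNP2, and the 8 spermatogonial markers to 136 to 152 CPM and 178 to 262 CPM, led by ID4 and FGFR3. The 5 endothelial markers, led by KDR and PECAM1, summed to 12.2 to 16.8 CPM and 11.1 to 16.2 CPM. Of the 6 Leydig markers, led by STAR (whose counts were the same as those of LSM1 in every library) and IGF1, CYP11A1 was at 0 counts throughout and the sums were 262 to 328 CPM and 232 to 268 CPM. The 4 Sertoli markers analysed, led by GATA4 and WT1, summed to 109 to 141 CPM and 91.3 to 142 CPM, mostly GATA4. WT1 was at 1.35 to 2.74 CPM over the 6 libraries, and FSHR had at most 1 count in any library. FATE1 had 0 counts in every PDGF library and 14, 17 and 2 in PDGFNO. The Sertoli markers AMH, SOX9 and CLDN11 were not analysed. The T cell marker CD3E had 0 counts in every library, and the 2 mast cell markers summed to at most 0.098 CPM. The part of these shifts in the results for the prostaglandin genes was not tested.

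**Figure D4:**
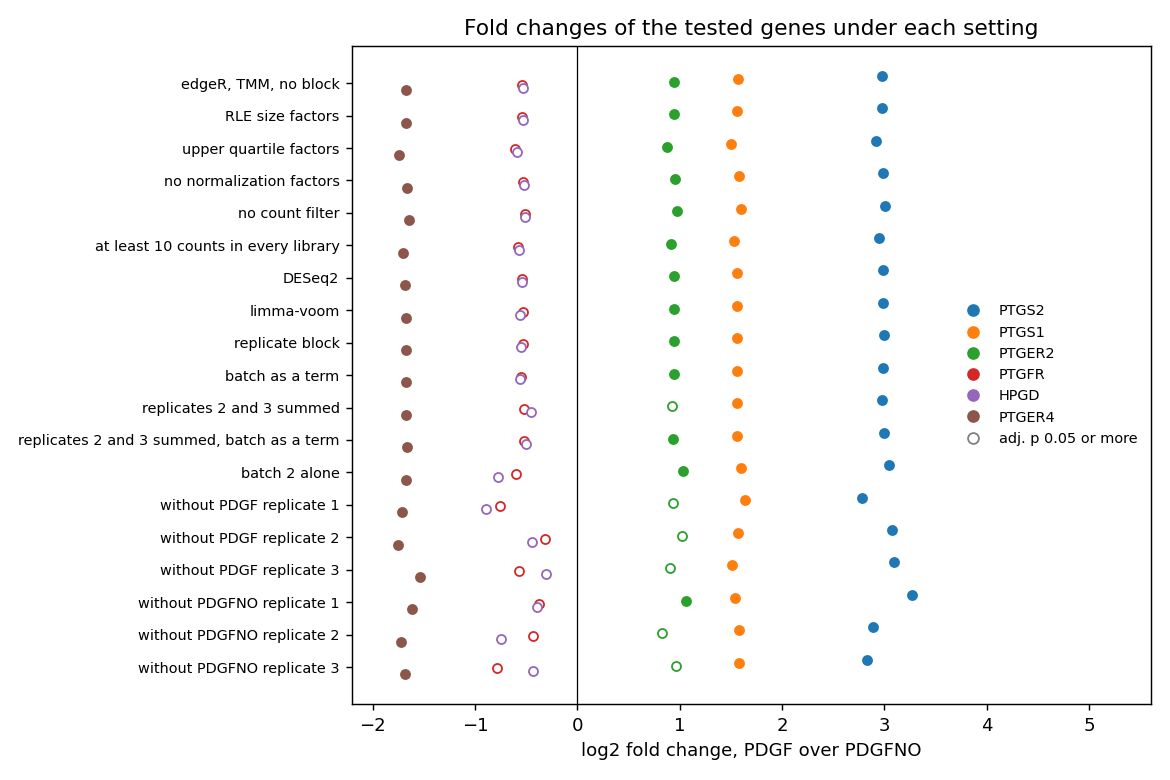
Log2 fold changes of the 6 tested genes under each setting of normalization, count filter, model and left-out library, with filled points at an adjusted p under 0.05 and open points otherwise. PTGS2, PTGS1 and PTGER4 stay filled in all settings, PTGER2 is open in 6 of them, and PTGFR and HPGD are open in all.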

How the data were processed

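Bulk RNA was sequenced in 6 libraries of cultured cells, and the deposited table gives gene-level counts. The submitters' processing notes name fastp, HISAT2 2.1.0, SAMtools and featureCounts 2.0.1, and the builds Mmul_10 and Mmul_8.0.1 without their roles. The annotation and strand setting were not given in the sources used here. The values were read as estimated counts per gene, made by the authors from aligned reads and not normalized, since 34 deposited values of 13 genes were not whole. These were rounded. Totals ranged from 10593805 to 14102697 per library. Counts carry no molecular identifiers, so counting intervals and the 3-count floor cover counting error only.

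Genes passing edgeR's filterByExpr were tested with edgeR 4.0.16 (TMM, quasi-likelihood F test, Benjamini-Hochberg over all genes tested, threshold 0.05) in R 4.3.3. The standard error is the absolute log2 fold change over the square root of F, and 95% intervals use the t quantile of the same fit. DESeq2 1.42.0 and limma 3.58.1 (voom), other normalization factors and filters, batch terms, summed replicates and leaving out each library were the alternatives. The deviations from the group means of equally numbered libraries correlated (r = 0.728, 0.35 and 0.374). Equal replicate numbers also share a labelled batch, and unequal numbers within batch 2 were not compared. These values therefore cannot tell a pairing from the shared batch. Summing replicates 2 and 3 with a batch term and the left-out libraries for the PTGIS ratio and the shares were added after seeing the data. Tests were run on simulated data first.

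TPM uses 1 RefSeq transcript a gene (a coding one, curated if any, else the longest), matched by symbol to RefSeq release 103 on Mmul_10 for 16996 of 17795 genes. Promoters and transcript ends come from that release, read with Python 3.11.15, pandas 2.3.3 and scipy 1.17.1. Figures were drawn with matplotlib 3.10.9. The members and lists were chosen with earlier results of these data known. Named genes are all members, every called gene of a list (at most 4 a direction), the top 2 markers of each cell type with those at 0, and the 3 genes most like the 3 members with the largest changes. DDX4, DAZL, PDGFRA, COL3A1, FATE1, PTGES2, PTGES3, AKR1B1, CBR1, CBR3, PTGIR, PTGER1, PTGFRN, SLCO2A1, PLA2G6, RBM3, PER1 and ALOX5 were named after their values were seen. So were the germ cell markers TMEM190, GFRA1, ZBTB16, SALL4, MAGEA4, SPACA1 and ACRV1, the Sertoli marker FSHR and the myeloid markers CD14, CSF1R, CD163 and LYZ.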

Additional observations from a re-analysis of the deposited data

How the results depend on the processing

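Over all 11539 genes tested, 878 were called higher and 1230 lower. With the replicate number as a block, which treats equally numbered libraries as if paired, 3587 were higher and 3347 lower. Batch as a term gave 3604 and 3387. With replicates 2 and 3 summed the counts were 206 and 487, and with a batch term added to that model, chosen after seeing the data, 3669 and 3420. Batch 2 alone gave 3041 and 3085. Leaving out 1 library gave 435 to 1284 higher and 726 to 1726 lower. A threshold of 0.01 gave 358 and 544, and one of 0.10 gave 1419 higher. From counts instead of TPM, PTGER4 made up 17.3% of the 3 receptors with PDGF and 43.1% without. The PTGIS ratio ranged from 0.212 to 0.922 over the left-out libraries. The block changed the call of 0 of the 6 tested members. PTGS1, PTGS2 and PTGER4 kept direction and call in all 18 alternatives, at log2 fold changes of 1.5 to 1.64, 2.78 to 3.27 and -1.75 to -1.54. PTGFR and HPGD passed in none of them, and PTGER2 kept its direction in all. No setting turned the direction of a member. The cause of these shifts was not tested. Groups of 3 libraries allow no check for single outlying values, and PTGER4, PTGFR and HPGD rest on 22 to 86 counts a library, which limits their precision.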
